A study of Homo sapiens with 7 samples.

Results

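The 31 genes described here are established transcriptional targets of the tumour suppressor p53. They were found by gene symbol, 1 entry per symbol, in the table of 16686 genes measured by RNA-seq in N/TERT2G cells. N/TERT2G is a single line of human keratinocytes immortalized with telomerase. In the siYT group (4 libraries, A to D) the cells had received pooled siRNAs against both YAP1 and TAZ (gene symbol WWTR1), the co-activators that the Hippo pathway restrains and that bind DNA through the TEAD factors. In the siCON group (3 libraries, A to C) they had received a non-targeting siRNA. Both were transfected with Lipofectamine RNAiMAX at 8 pmol per cm2, 1 day after plating, and RNA was taken 48 h later. The comparison addresses which transcripts move when keratinocytes lose both co-activators. Libraries were labelled only by letters. For its cell experiments in general the study describes separate wells of the same plating, without saying if these libraries came from independent platings, so the p-values reflect only how far these libraries spread, and that spread may be technical.

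p53 is a DNA-binding transcription factor that is kept scarce in unstressed cells, because its own target MDM2 marks it for degradation. DNA damage and other stresses stabilize it, and it then switches on genes for cell cycle arrest, DNA repair, cell death and metabolism, together with genes that shut it off again. In epidermis its relative p63 maintains the basal progenitor layer and shares many DNA sites with it, and several p53 targets are also switched on by the stress factors ATF4 and CHOP without p53.

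p53 binds a pair of adjacent 10-base units, each with a fixed C and G, and the best match to that 20-base consensus was sought within 2000 bases upstream and 3000 bases downstream of each gene start, on both strands of hg19. A match with 0 mismatches was found in 1 member (3.23%) against 0.0464% of the 12933 tested genes that could be searched. Up to 2 mismatches were found in 14 members (45.2%) against 3.99% of all those genes. As the members were chosen as established p53 targets, a higher share follows from that choice and says nothing about these libraries. The sequences below are the best matches, on each gene's own strand, of 5 of the 6 called members, followed by 3 members with closely matching sites that were not called, and capitals mark the core bases from the fixed C to the fixed G of each unit.
CCNG1 (1 mismatch, intron 1, chr5:162864932-162864951): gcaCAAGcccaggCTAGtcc
PPM1D (3 mismatches, 463 bases upstream of the gene start, chr17:58677081-58677100): gcaCTTGttccggCCAGctc
GADD45A (1 mismatch, intron 3, chr1:68152458-68152477): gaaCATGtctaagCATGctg
TP53I3 (3 mismatches, upstream of the canonical transcript, chr2:24308035-24308054): cagCTTGcccaccCATGctc
PLK2 (5 mismatches, upstream of the canonical transcript, chr5:57756036-57756055): tggCGGGacaagaCTTGctt
ZMAT3 (0 mismatches, intron 1, chr3:178787976-178787995): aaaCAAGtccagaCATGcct
DDB2 (1 mismatch, untranslated part of exon 1, chr11:47236520-47236539): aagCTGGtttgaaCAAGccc
MDM2 (2 mismatches, intron 1, chr12:69202703-69202722): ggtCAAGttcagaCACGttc
These are matches of letters, not measured binding. CCNG1, which rose, and GADD45A, which fell, both hold a site with a single mismatch. TP53I3 also carries, in the untranslated part of its first exon, a run of 15 units of 5 bases, each TGCCC or TGTCC on the gene's own strand (75 bases, chr2:24307213-24307287), through which p53 is known to act on that gene. No other of the 12933 windows held a run as long.

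All 7 libraries held keratinocyte RNA, with all 12 marker genes of the list present and a summed signal of 43637 to 44921 in siCON against 47864 to 50940 in siYT (5 of the 12 called higher, 1 lower). Values are the TMM-normalized signal deposited by the authors, on a scale near CPM (reads scaled to a common library total). Depth was estimated at 20700000 to 23900000 reads per library, from each library's total and lowest value. This takes the lowest value as a single read, which was not verified. Summed markers of other cell types were at 227 to 256 in siCON against 186 to 193 in siYT for fibroblasts (5 of 7 genes in the table), at 2.69 to 3.23 and 1.98 to 2.86 for melanocytes (2 of 7), and at 6.08 to 6.64 and 10.1 to 11.7 for leukocytes (3 of 7), and their part in the results was not tested. YAP1 fell from 244 ± 13.3 to 68.5 ± 5.38 (mean ± SD, siCON n = 3, siYT n = 4) and WWTR1 from 36.2 ± 1.60 to 5.60 ± 0.66. The first principal component held 88.4% of the variance and separated the groups. The second (3.7%) divided siYT A, siYT B and siCON A from the other 4 libraries. With those 4 libraries alone 3 members (9.68%) were called higher and 3 (9.68%) lower, against 14.2% and 13.9% of all genes.

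After knockdown of YAP1 and TAZ the p53 target genes held changes in both directions. CCNG1, TP53INP1 and PPM1D rose, by 5.19-fold, 3.22-fold and 1.84-fold, and TP53I3, PLK2 and GADD45A fell, by 3.72-fold, 3.09-fold and 1.88-fold. All 31 members passed the filter on low signal and were tested. With a called gene defined by limma's Benjamini-Hochberg adjusted p under 0.05 and a change of at least 1.5-fold, 3 members (9.68%) were called higher against 14.1% of the 13072 genes tested, and 3 (9.68%) lower against 13.2%. In either direction this was 6 members (19.4%) against 27.4% of all genes. With libraries rescaled to equal totals 7 members (22.6%) were called higher against 17.9% of all genes, and 3 (9.68%) lower against 9.79%, which gave 32.3% of members against 27.7% of all genes. Of all calls, 64.6% were upward with equal totals against 51.6% with the deposited scaling. At a 2-fold threshold with the deposited scaling, 12.9% of members were called against 9.55% of all genes. Which share was larger thus changed with the setting. These differences rest on a few of the 31 members and do not separate the members from other genes. RNA came from whole cultures, so fewer cells carrying a transcript and less of it per cell cannot be told apart.

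Small differences were common among the members, as they were in all genes. The adjusted p was under 0.05 in 26 of 31 members (83.9%), against 69.6% of all genes tested. It was so in the upward direction in 15 members (48.4%) against 34.7% of all genes and downward in 11 (35.5%) against 34.9%. Of the 26, 20 stayed under 1.5-fold, 12 higher and 8 lower. In 23 members (74.2%) the groups were fully apart, against 68.7% of all genes. The median log2 fold change of the members was 0.088 against 0.0033 for all genes, and 18 of the 31 (58.1%) were above 0, against 50.3% of all genes. Their median absolute log2 fold change was 0.40 against 0.34. Replicates were close, with a coefficient of variation of 0.66% to 16.0% in siCON (median 6.29%) and 0.62% to 16.7% in siYT (median 4.05%). The widest spread in both groups was that of GDF15, the member with the lowest signal.

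**Figure D1:**
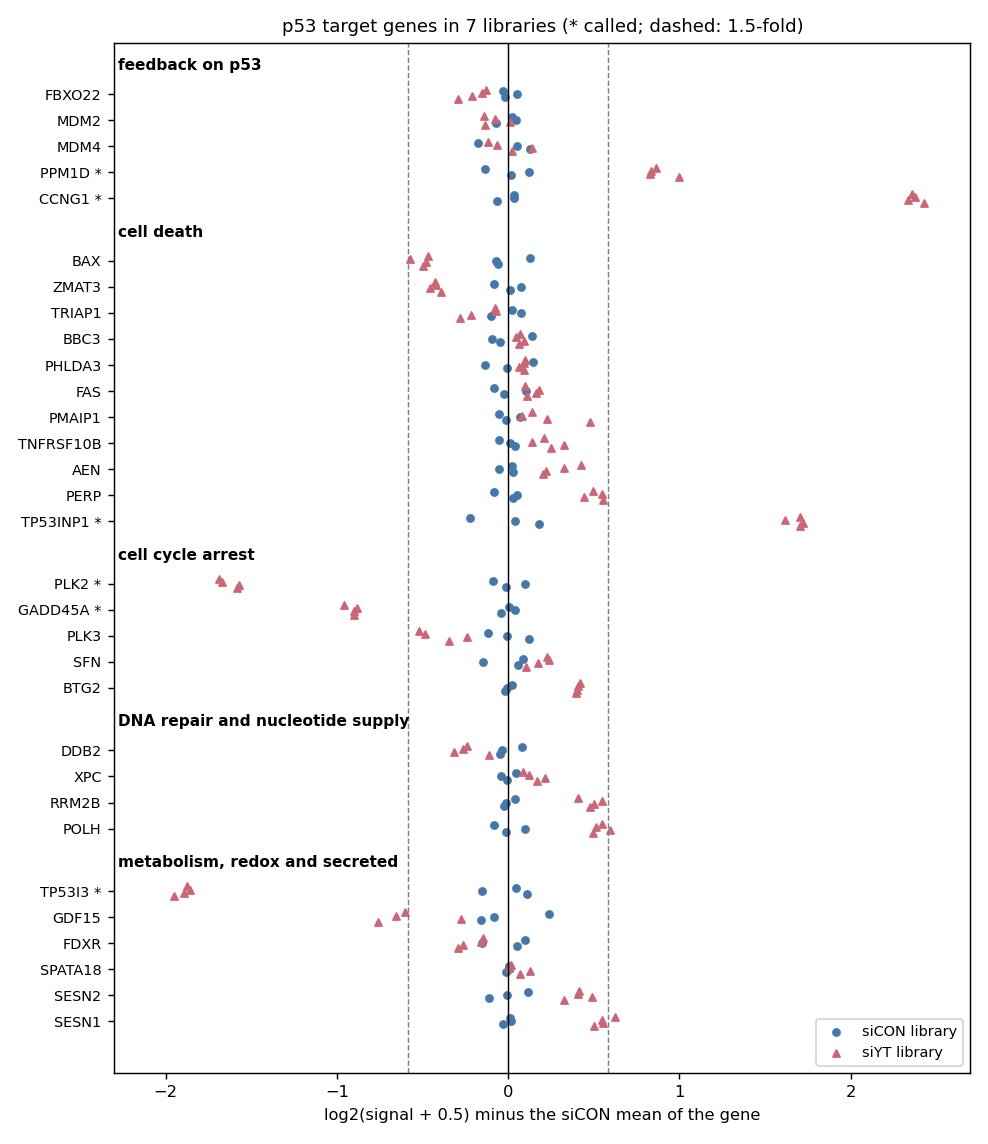
Each of the 31 p53 target genes in the 7 libraries, as log2(signal + 0.5) minus the siCON mean of that gene (x axis), grouped by role and ordered by change, with siCON libraries as circles and siYT libraries as triangles. The 6 called genes (asterisks) lie past the dashed lines at 1.5-fold, 3 on each side, and the siYT triangles of most other members lie within those lines.

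Among the genes that feed back on p53, the 2 that rose act on the phosphorylation side of the loop, while the ubiquitin ligase genes stayed within 1.5-fold of control. CCNG1 encodes cyclin G1, which brings the phosphatase PP2A to MDM2. Its signal was 67.6, 67.6 and 63.1 in siCON A to C against 342, 346, 335 and 358 in siYT A to D. The lowest siYT library was thus far above the highest siCON library, and the log2 fold change was 2.37 ± 0.05 (SE, limma adjusted p = 7.82e-15), the largest of any member in either direction. PPM1D encodes WIP1, a phosphatase that removes damage-induced phosphates from p53 and from the kinases that act on it. Its signal was 8.96, 10.8 and 10.01 in siCON against 18.4, 18.0, 17.9 and 20.2 in siYT, without overlap (log2 fold change 0.88 ± 0.08, limma adjusted p = 1.21e-07).

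MDM2, the ubiquitin ligase that degrades p53, measured 139, 141 and 130 in siCON against 124, 130, 138 and 125 in siYT. The groups overlapped, and the log2 fold change of −0.084 had a 95% interval of −0.20 to 0.029 (limma adjusted p = 0.168). With libraries rescaled to equal totals its sign turned, to 0.028, and with the trend of change on transcript length removed it was −0.28 (limma adjusted p = 2.52e-04), without a call in either case. MDM4, the MDM2 relative that covers the activation domain of p53, was at 14.5 to 18.0 in siCON against 15.1 to 18.2 in siYT (log2 fold change −0.0048, interval −0.19 to 0.18, limma adjusted p = 0.965), and its sign also turned with the processing. With the length trend removed MDM4 was at −0.21 (limma adjusted p = 0.0331). FBXO22, the substrate-binding subunit of an SCF ubiquitin ligase, was lower in each siYT library, at 52.5 to 55.6 in siCON against 43.8 to 49.1 in siYT (−0.20 ± 0.06, limma adjusted p = 0.00575), and stayed under the fold required for a call. With equal library totals it was −0.084 (limma adjusted p = 0.169).

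**Figure D2:**
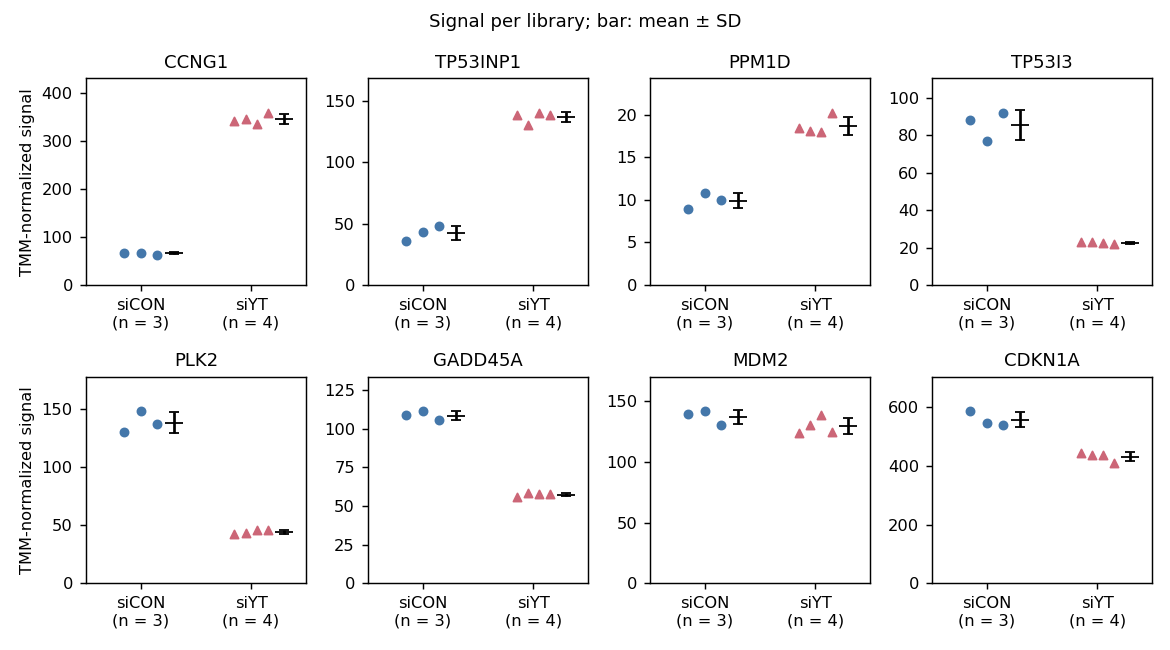
TMM-normalized signal (y axis, from 0) per library in siCON (circles, n = 3) and siYT (triangles, n = 4), with mean ± SD as bars, for the 6 called members and for MDM2 and CDKN1A. The groups are apart in the 6 called members and in CDKN1A, and they overlap in MDM2.

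Among the 11 cell death members, 1 was called higher and 0 lower, and their median log2 fold change was 0.14. Of all genes tested 14.1% were called higher and 13.2% lower, and a group of 11 is too small to compare with these shares. TP53INP1, a stress-induced protein of autophagy and of p53-dependent death, measured 36.0, 43.3 and 47.8 in siCON against 138, 130, 140 and 138 in siYT. Every siYT library lay well above every siCON library, and the log2 fold change was 1.69 ± 0.07 (limma adjusted p = 2.73e-11). The whole gene lies within NDUFAF6 on the opposite strand, which was at 6.39 and 5.89 and was not called. PERP, a desmosomal tetraspan protein that is also a p63 target and the most abundant member by signal, measured 1775, 1954 and 1921 in siCON against 2650, 2749, 2560 and 2767 in siYT. These did not overlap (0.51 ± 0.07, limma adjusted p = 4.58e-06), and the change was 1.42-fold, under the threshold.

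BAX and BBC3, the intrinsic death genes that p53 is best known for, were not called. BAX, the pore-forming protein of the mitochondrial outer membrane, was lower in every siYT library, at 78.9, 68.5 and 69.1 in siCON against 52.0, 48.2, 51.5 and 50.8 in siYT (−0.50 ± 0.06, limma adjusted p = 1.76e-06, 1.42-fold). With the length trend removed the difference was −0.11 and the adjusted p no longer passed (limma, 0.0791). BBC3, which encodes the BH3-only protein PUMA, was at 16.5 to 19.5 in siCON against 18.2 to 18.9 in siYT, inside the siCON range (0.068, limma adjusted p = 0.412). It was 0.18 with equal totals and 0.21 with the length trend removed (limma adjusted p = 0.0398 and 0.0115). PMAIP1, the gene of the BH3-only protein NOXA, was at 58.5 to 63.6 in siCON against 67.0, 64.2, 71.2 and 84.6 in siYT (0.23 ± 0.08, limma adjusted p = 0.0141). Its groups did not overlap, with siYT D above the others, and without siCON A the adjusted p was 0.058 (limma).

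The death receptor genes among the members, FAS and TNFRSF10B, were not called. FAS, the receptor of FAS ligand, was at 40.4 to 46.1 in siCON against 45.9 to 48.7 in siYT, with overlap (0.14 ± 0.06, limma adjusted p = 0.0443), and the adjusted p rose above 0.05 without siCON A, siCON C, siYT B or siYT C (0.0852 to 0.186). TNFRSF10B, which encodes the TRAIL receptor DR5, was at 153 to 163 and at 175 to 199, without overlap (0.23 ± 0.05, limma adjusted p = 9.86e-04). FAS overlaps ACTA2, which lies on the opposite strand over 734 bases and was itself called higher (9.34 to 14.9). TNFRSF10B overlaps RP11-875O11.2 on the opposite strand over 951 bases, and that gene was also called higher, at a low signal (0.54 to 2.26). No source used here says if counting took account of strand, so reads of such pairs cannot be told apart. AEN, an apoptosis-enhancing nuclease, was at 22.6 to 24.0 in siCON against 27.1 to 31.7 in siYT (0.29 ± 0.07, limma adjusted p = 0.00118).

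ZMAT3, the zinc finger RNA-binding protein gene whose first intron holds the only site without a mismatch among the members, measured 125, 140 and 134 in siCON against 98.6, 99.1, 96.6 and 101 in siYT. All siYT values were lower (−0.42 ± 0.05, limma adjusted p = 1.86e-06, 1.34-fold). With the length trend removed it passed the fold threshold, at −0.63. TRIAP1, a small mitochondrial protein that opposes apoptosis, was at 46.3 to 52.4 and 40.9 to 47.2, with overlap (−0.16, limma adjusted p = 0.0405), and its sign turned to 0.13 with that trend removed. Its adjusted p did not pass without siCON A, siCON B, siYT C or siYT D (limma, 0.09 to 0.16), nor with equal totals (0.49). PHLDA3, which keeps the kinase AKT from the membrane, was at 110 to 133 in siCON against 126 to 129 in siYT (0.088, limma adjusted p = 0.192), and without siCON A it was 0.16 (limma adjusted p = 0.0187). With equal totals it was 0.20 (limma adjusted p = 0.00757).

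The 5 cell cycle arrest members included 2 of the 3 that fell, with 0 called higher and a median log2 fold change of −0.40. Of all genes tested 13.2% were called lower and 14.1% higher, and a group of 5 is too small to compare with these shares. PLK2, a polo-like kinase of centriole duplication and stress, measured 130, 148 and 137 in siCON against 42.5, 42.9, 46.2 and 45.8 in siYT. All siYT libraries lay far below all siCON libraries (−1.63 ± 0.06, limma adjusted p = 2.26e-12). GADD45A, a stress protein that acts on CDK1 and the kinase p38, measured 109, 111 and 105 in siCON against 55.7, 58.5, 57.9 and 57.8 in siYT, again without overlap (−0.91 ± 0.05, limma adjusted p = 2.15e-10).

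PLK3, a second polo-like kinase of the stress response, was lower by less, at 11.0 to 13.0 in siCON against 8.18 to 10.04 in siYT (−0.40 ± 0.09, limma adjusted p = 0.00137, 1.32-fold). BTG2, an antiproliferative co-factor of mRNA deadenylation, measured 226, 222 and 220 in siCON against 298, 296, 295 and 294 in siYT. All siYT libraries were higher, with a coefficient of variation of 0.62%, and the difference was far beyond the replicate error (0.41 ± 0.04, limma adjusted p = 7.02e-07) although the change was 1.33-fold. SFN encodes stratifin, which holds mitotic cyclin-CDK complexes in the cytoplasm and is also a p63 target and a keratinocyte marker. It was at 982 to 1155 in siCON against 1169 to 1285 in siYT (0.19 ± 0.07, limma adjusted p = 0.0206). Without siCON B, its lowest library, the difference was 0.11 (limma adjusted p = 0.132), and without siYT A or siYT B the adjusted p was 0.0527 and 0.0574. Per kilobase of transcript SFN had the highest siCON level of the members (834), followed by PERP (449), and MDM4 and PPM1D had the lowest (1.64 and 2.08).

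None of the 4 genes of DNA repair and nucleotide supply was called, and their median log2 fold change was 0.32. Of all genes 27.4% were called, and a group of 4 is too small to compare with that share. POLH, the translesion DNA polymerase eta, measured 35.7, 40.5 and 37.5 in siCON against 55.7, 54.3, 57.5 and 53.7 in siYT (0.54 ± 0.06, limma adjusted p = 5.87e-07). RRM2B, the p53-inducible small subunit of ribonucleotide reductase, measured 64.3, 62.0 and 61.5 in siCON against 83.2, 91.7, 88.7 and 87.3 in siYT (0.48 ± 0.05, limma adjusted p = 4.98e-07). Both were above control in every siYT library, by 1.45-fold and 1.40-fold. With equal library totals both were called, at 0.65 and 0.60. Without siCON B, the siCON library nearest to siYT, POLH passed the fold threshold, at 0.59. XPC and DDB2 encode damage sensors of nucleotide excision repair. XPC was at 135 to 143 in siCON against 147 to 161 in siYT (0.15 ± 0.05, limma adjusted p = 0.0134), and DDB2 was at 65.4 to 71.6 in siCON against 54.2 to 62.6 in siYT (−0.23 ± 0.06, limma adjusted p = 0.0025). With the length trend removed neither passed, at 0.080 and −0.082 (limma adjusted p = 0.132 and 0.212), and DDB2 did not pass with equal totals either (−0.12, limma adjusted p = 0.0797). POLH is overlapped over 13649 bases by GTPBP2 on the opposite strand, which was at 49.1 and 47.4 and was not called.

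Of the 6 members in metabolism, redox control and secretion, 1 was called lower and 0 higher, and their median log2 fold change was −0.080. Of all genes 13.2% were called lower and 14.1% higher, and a group of 6 is too small to compare with these shares. TP53I3, which encodes the quinone oxidoreductase PIG3, measured 87.9, 76.7 and 91.9 in siCON against 22.9, 23.2, 22.6 and 21.7 in siYT. The siYT libraries were tightly grouped and far below every siCON library (−1.89 ± 0.06, limma adjusted p = 1.85e-12), which was the largest decrease among the members. The whole of TP53I3 lies within FAM228B on the opposite strand, which was at 3.23 and 1.67 and was also called lower, so the same limit holds. The signal of FAM228B was far under that of TP53I3 in every library.

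The sestrin genes, whose products restrain the growth kinase complex mTORC1, were both higher by less than 1.5-fold. SESN1 measured 46.7, 47.0 and 45.5 in siCON against 71.9, 68.2, 68.5 and 65.9 in siYT (0.56 ± 0.05, limma adjusted p = 1.08e-07), close under the threshold at 1.47-fold. SESN2, which is also an ATF4 target, was at 40.0 to 46.7 and 54.2 to 60.8 (0.41 ± 0.06, limma adjusted p = 2.6e-05). GDF15, a secreted stress cytokine of the TGF-beta superfamily, measured 9.10, 7.19 and 6.79 in siCON against 4.86, 4.67, 6.22 and 4.31 in siYT. Its groups did not overlap, siYT C was nearest to control, and the decrease of 1.49-fold (−0.57 ± 0.13, limma adjusted p = 9.38e-04) was under the threshold.

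The value of GDF15 passed the threshold without siYT C, siCON B or siCON C (−0.67, −0.61 and −0.65), with a pseudocount of 0.1 (−0.61) and with upper-quartile scaling (−0.59). Removal of the length trend left −0.30, and omission of siCON A left −0.45.

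FDXR, the mitochondrial ferredoxin reductase, was at 36.6 to 43.6 in siCON against 33.1 to 36.7 in siYT, with overlap (−0.22 ± 0.07, limma adjusted p = 0.011). This did not pass with equal totals (−0.10), with the length trend removed (−0.071) or without siCON A (−0.17), where the limma adjusted p was 0.184, 0.317 and 0.0671. SPATA18, the mitochondrial quality control protein MIEAP, was at 37.6 to 38.04 and 37.96 to 41.4 (0.055, interval −0.062 to 0.17, limma adjusted p = 0.385). With equal totals it was 0.17 (limma adjusted p = 0.0157), and with the length trend removed its sign turned, to −0.050.

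The 5 members listed here as also targets of ATF4 or CHOP (BBC3, PMAIP1, TNFRSF10B, SESN2 and GDF15) included 0 called genes. Their median log2 fold change was 0.23. Of all genes 27.4% were called, and a group of 5 is too small to compare with that share. GADD45A, which was called lower, was not listed with these 5. A list of 16 ATF4 and CHOP targets gave 0 higher and 10 (62.5%) lower, against 14.1% and 13.2% of all genes, with a median of −0.81. Its largest changes were in CHAC1, which degrades glutathione (11.1 ± 2.48 to 1.34 ± 0.60, log2 fold change −2.68), ASNS, the asparagine synthetase (62.0 ± 12.8 to 9.63 ± 2.81, −2.64), SLC7A11, the cystine transporter (64.7 ± 10.3 to 10.6 ± 3.31, −2.59), and STC2, a secreted stress glycoprotein (48.9 ± 7.62 to 12.3 ± 5.95, −2.04). Of the 5 listed members only GDF15 was lower than control, and 3 of the others had an adjusted p under 0.05 in the upward direction.

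The p53 relatives TP63 and TP73 were both called higher. TP63 encodes p63, the factor of the basal layer described above. Its signal was 290, 317 and 299 in siCON against 463, 466, 462 and 454 in siYT (0.61 ± 0.05, limma adjusted p = 2.03e-08), called higher at 1.53-fold, and its value was under the threshold without siCON A, at 0.58, and with siCON B and C and siYT C and D alone, at 0.57. TP73 rose from 16.4 ± 0.60 to 27.1 ± 1.35 (0.70 ± 0.07, limma adjusted p = 1.44e-07). Both lost the call with the trend on transcript length removed, at 0.48 and 0.56.

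In the list of p53 and its regulators, 5 of 34 genes (14.7%) were called higher and 3 (8.82%) lower, with a median of 0.096. These shares were near or under those of all genes (14.1% and 13.2%), and the 5 include TP63 and TP73. HIPK2, a kinase that phosphorylates p53, rose from 83.9 ± 4.65 to 195 ± 14.3 (1.21), and DYRK2, a second p53 kinase, from 25.3 ± 3.65 to 42.5 ± 1.21 (0.75). The ribosomal proteins RPL23 and RPL5, which bind MDM2 when free of ribosomes, fell from 978 ± 68.3 to 508 ± 22.0 (−0.94) and from 1235 ± 72.6 to 700 ± 16.5 (−0.82). Ribosomal protein genes have many processed pseudogenes, which makes their values less certain.

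CDKN1A, which encodes the CDK inhibitor p21 and is the archetypal p53 target, measured 585, 544 and 539 in siCON against 442, 437, 435 and 409 in siYT. All siYT libraries were below all siCON libraries (−0.37 ± 0.05, limma adjusted p = 1.2e-05), by 1.29-fold, under the threshold. It belongs to a second list of p53 targets, of which 40 of 41 genes were tested. In that list 9 genes (22.5%) were called higher and 4 (10%) lower, against 14.1% and 13.2% of all genes, with a median log2 fold change of 0.14. CD82, a tetraspanin that restrains metastasis, rose from 105 ± 9.53 to 233 ± 8.22 (1.15) and PLCL2, a catalytically inactive phospholipase relative, from 1.61 ± 0.16 to 5.89 ± 0.14 (1.60). PRDM1, the repressor BLIMP1, fell from 18.3 ± 1.32 to 8.35 ± 0.91 (−1.09), and DUSP14, a MAP kinase phosphatase, from 103 ± 5.35 to 48.7 ± 1.89 (−1.07).

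Genes that p53 represses through p21 and the DREAM complex moved mostly one way. Of these 20 cell cycle genes 15 (75%) were called higher and 0 lower, against 14.1% and 13.2% of all genes tested. Their median log2 fold change was 1.05. Several of the genes called higher had a low signal in control, such as CDC25C, BLM and TTK (siCON means of 0.84, 1.65 and 3.18). The members held calls in both directions while this list held calls in one, and no test compares the 2 lists. The study reports, from a separate luminescence assay, that knockdown of YAP1 and TAZ lowered proliferation of these cells. How that relates to the higher signal of these cell cycle genes was not tested. Neither the activity of p53 nor that of DREAM was measured here, so the route of these changes was not tested.

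**Figure D3:**
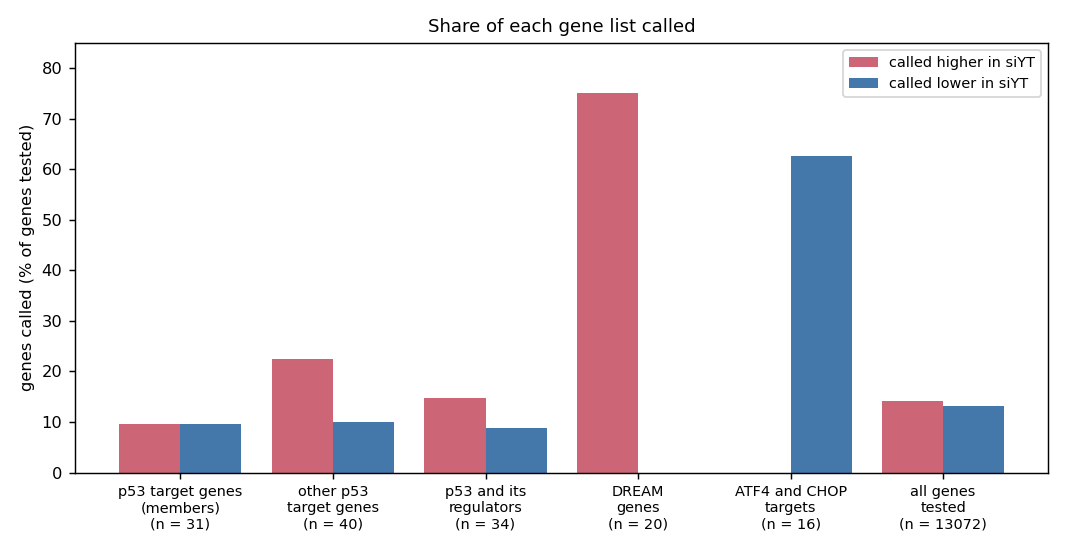
Share of the tested genes of each list called higher (left bars) and called lower (right bars) in siYT, in percent (y axis, from 0), with the number tested under each list. The p53 target genes stand at 9.68% in both directions, beside 14.1% and 13.2% of all genes tested, while DREAM genes were called only higher (75%) and ATF4 and CHOP targets only lower (62.5%).

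Members with close and with distant matches to the p53 site were called in both directions. The 14 members with up to 2 mismatches included 1 called higher and 1 called lower, with a median log2 fold change of 0.097. The 17 with 3 or more mismatches included 2 higher and 2 lower, with a median of 0.088. Of all genes tested 14.1% were called higher and 13.2% lower, and counts this small do not separate the 2 classes from these shares. Over all genes, a site with up to 2 mismatches was found in 4.31% of those called higher, 3.10% of those called lower and 4.09% of those not called. TP53INP1, RRM2B and TNFRSF10B lie on chromosome 8, with best matches of 5, 1 and 2 mismatches. In the RefSeq promoter windows (GRCh38.p14, 300 bases, 25 members matched) the TEAD motif GGAATG, searched on both strands, was found in 5 members (20%), namely BBC3, GDF15, PLK3, SPATA18 and TP53I3, against 14.0% of 27305 promoters and 10.8% of the 9334 promoters of genes tested. Of these 5 genes only TP53I3 was called.

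Short transcripts tended to be lower in siYT relative to siCON over all genes, and the members showed a relation of the same sign. Across the 12434 tested genes with a known length, log2 fold change and transcript length had a Spearman correlation of 0.30, and across the 31 members it was 0.42 (Pearson 0.25 and 0.30). These are correlations across genes of the same 7 libraries, and genes are not independent replicates. The 3 members called higher had a median length of 4768 bases and the 3 called lower 1653 bases, against 2786 for all members. With the length trend removed all 6 kept their calls, with CCNG1 the highest and TP53I3 the lowest.

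**Figure D4:**
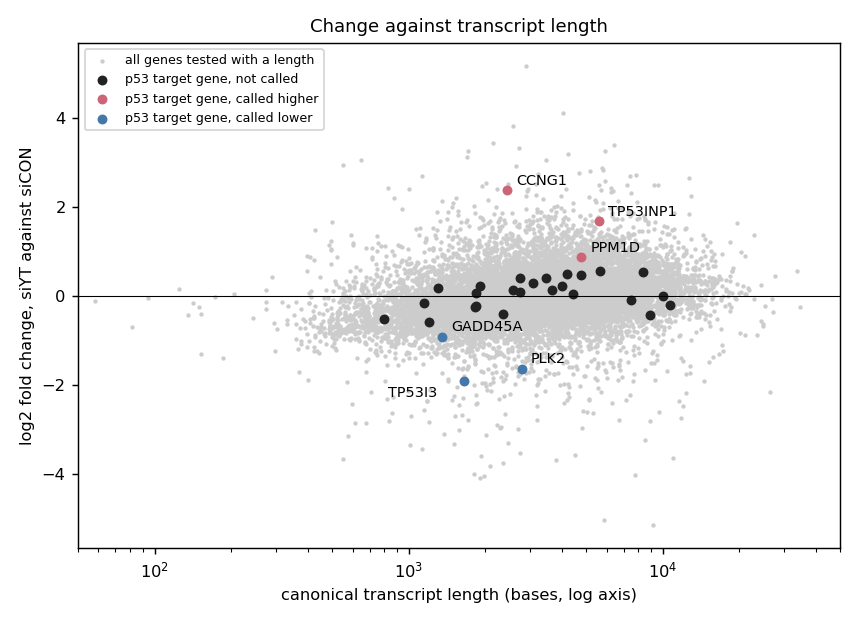
Log2 fold change of siYT against siCON (y axis) against canonical transcript length in bases (x axis, log scale) for all tested genes with a known length (grey) and the 31 p53 target genes (large points, coloured by call). PLK2 and TP53I3 lie far below, and CCNG1 and TP53INP1 far above, most genes of the same length.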

How the data were processed

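RNA-seq libraries were prepared from polyadenylated RNA of 3 siCON and 4 siYT samples with a TruSeq mRNA kit. Per the submitters' notes on processing, reads were handled with Partek 8.0.19.0819, STAR 2.6.1 and cutadapt 1.18 on hg19. The methods name Trimmomatic and an earlier Partek release, with genes under 8 reads removed. The expression values deposited by the authors are a TMM-normalized signal per gene, without zeros, with library totals of 866098 to 955106. TMM takes its factors from genes assumed not to change. In genes averaging under 2, only 82.3% of values came within 0.05 of whole multiples of a library's lowest value, so no count model was fitted. A second deposited file holds the authors' own comparison (p-values, fold changes and group means) and was not used.

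The table held 18478 entries. Its 1792 repeats, all with identical values, were dropped. Values were taken as log2(value + 0.5), and the 13072 genes averaging 1 or more over 7 libraries were tested with limma 3.58.1 (trended empirical Bayes, R 4.3.3), without covariates, and p-values were adjusted by Benjamini-Hochberg across those genes. A called gene had an adjusted p under 0.05 and a change of at least 1.5-fold. The constant of 0.5 makes fold changes of low genes appear smaller than they are. The fit was tested on simulated data, with the outcome not reported here. Python 3.11.15 was used for the site search, with GENCODE transcript lengths and positions on hg19 (95.1% of tested genes had a length).

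The members and gene lists were chosen with earlier results of these data known, so no list was tested. Every member is named. From the lists of other p53 targets, of p53 and its regulators and of ATF4 and CHOP targets, up to 4 called genes with the largest change among those averaging at least 2 are named, and TP63, TP73, CDKN1A, YAP1 and WWTR1 always. Another gene of that rule is not reported here. The DREAM and marker lists were counted, and CDC25C, BLM and TTK are named outside that rule as examples of a low siCON signal. ACTA2, RP11-875O11.2, FAM228B, GTPBP2 and NDUFAF6 are named because they overlap a member. MDM2, XPC and TNFRSF10B overlap further genes that are not named. Alternatives comprised other pseudocounts, filters, scalings and thresholds, leaving out each library, a replicate block, averaging siYT A and B, a principal component as a covariate and removal of the length trend.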

Additional observations from a re-analysis of the deposited data

Results flagged for a closer look

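In each group of 4 siYT libraries, the highest or lowest value was compared with its nearest neighbour for the 49 genes named with values, and none of the 31 p53 target genes had a library apart from the rest. Chance marks about 1 group in 20, and 5 of the 49 genes were marked. TP73 was at 25.1 in siYT D, below the next value of 27.5. HIPK2 was at 174 in siYT C, below the next value of 201. The other 3 were ATF4 and CHOP targets that were higher in siYT C than in the other siYT libraries, namely ASNS at 13.8 (next 8.82), SLC7A11 at 15.5 (next 9.34) and STC2 at 21.2 (next 9.80).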

How the results depend on the processing

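CCNG1, TP53INP1, PPM1D, TP53I3, PLK2 and GADD45A kept their direction and their call under all 21 alternatives that gave a value per gene. With equal library totals 7 members (22.6%) were called higher against 17.9% of all genes, as PERP (0.62), POLH (0.65), RRM2B (0.60) and SESN1 (0.67) joined, the median of all genes moved to 0.11 and 64.6% of 3620 calls were upward against 51.6%. Without a fold threshold 15 members (48.4%) were called higher and 11 (35.5%) lower, against 34.7% and 34.9% of all genes (9101 calls in all). At 2-fold 2 members (6.45%) were called higher and 2 (6.45%) lower, against 5.32% and 4.24% of all genes (1249 calls). PPM1D and GADD45A, at 1.84-fold and 1.88-fold, were not called at that threshold. The members' median was 0.20 with equal totals, 0.13 with the length trend removed, 0.15 with siCON B and C and siYT C and D alone (an alternative chosen after seeing the data), and 0.059 to 0.14 when a library was left out, highest without siCON A. MDM2 turned to 0.028 with equal totals. MDM4 turned to 0.10 with equal totals, 0.024 with siYT A and B averaged and 0.00093 with the second component as a covariate, and lay between −0.093 and 0.059 when a library was left out. With the length trend removed TRIAP1 turned to 0.13 and SPATA18 to −0.050. Libraries sharing the letters A to C had correlations of 0.157, 0.025 and 0.183. No correlations between different letters are given here, so these values do not settle whether the letters pair the libraries. The replicate block on the letters left 3 members (9.68%) higher and 3 (9.68%) lower, against 13.9% and 13.1% of all genes (1818 and 1710). The cause of these shifts was not tested. The number of libraries limits small differences such as those of MDM2 and MDM4.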
